A study of Homo sapiens with 19 samples.

Results

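The genes described here encode proteins of the contractile actin apparatus: ACTA2, ACTG2, TAGLN, CNN1, CNN2, MYL9, TPM1, TPM2, CALD1 and VCL. The 10 genes are a list put together by function, with earlier results of these data known, and were matched by symbol to the Ensembl identifiers of the count data, where all 10 were found among 44717 identifiers. Their levels were measured by RNA-seq in 19 samples of 7 groups. 501Mel, a human melanoma line, was infected with lentiviral vectors expressing shBRG1 or the scramble control shSCR1 (n = 3 each), and with shMITF or the scramble control shSCR2 (n = 2 each). Hermes 3A, an immortal line of untransformed human melanocytes, was infected with shSCR, shBRG1 or shMITF (n = 3 each). Each knockdown used 1 hairpin, so that an effect of the hairpin and an effect of losing its target cannot be told apart. Hermes 3A cells were also grown with TPA, cholera toxin, stem cell factor and endothelin-1, which the 501Mel medium lacked, so that the line and its medium cannot be told apart. BRG1, encoded by SMARCA4, is the ATPase of a chromatin remodelling complex, and MITF is the transcription factor that directs the melanocyte programme.

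Stress fibres are bundles of actin filaments and myosin that spread, flattened cells use to pull on their substrate. Many genes for their components are switched on by serum response factor (SRF), which binds a short DNA element called the CArG box and is activated by the cofactors MRTFA and MRTFB when monomeric actin is used up in filaments. In smooth muscle the related cofactor MYOCD drives the same genes. ACTA2 and ACTG2 encode the smooth muscle α- and γ-actins. TAGLN encodes transgelin, an actin-binding protein, and CNN1 and CNN2 encode the related calponins. MYL9 encodes a regulatory light chain of non-sarcomeric and smooth muscle myosin. TPM1 and TPM2 encode tropomyosins, which lie along the filament, CALD1 encodes caldesmon, which restrains myosin on actin, and VCL encodes vinculin, which ties filaments to adhesions. The question put to the data was how these genes differed between the lines and how they changed in each knockdown.

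The promoters of 8 of the 10 genes could be searched in RefSeq sequences on GRCh38, each running from 250 bases before to 50 bases after an annotated start. The CArG box was searched as CC, then 6 bases that are each A or T, then GG, which is the same search on both strands. It was found in 2 of the 13 promoters of these 8 genes, those of ACTG2 and CNN2, and in 1.29% of all 35116 promoters of that length. When 1 of the 6 inner bases was allowed to be another base, promoters of ACTA2 and CALD1 were added, making 4 of 13, against 8.13% of all promoters. A match is a description of the letters, not evidence of binding, and a promoter without a match says only that the letters are not in that window. Stretches of 130 bases are given for ACTG2, CNN2 and an ACTA2 start because they show how the element sits near the start. The capitals mark the strict elements in ACTG2 and CNN2 and the relaxed elements in ACTA2. The elements begin 110 and 73 bases before the ACTG2 start, 89 bases before the CNN2 start, and 121 and 71 bases before that ACTA2 start.
ACTG2, chr2:73892878-73893007, plus strand: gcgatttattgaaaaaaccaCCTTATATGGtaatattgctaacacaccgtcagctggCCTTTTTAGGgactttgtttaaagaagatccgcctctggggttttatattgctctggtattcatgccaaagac
CNN2, chr19:1026478-1026607, plus strand: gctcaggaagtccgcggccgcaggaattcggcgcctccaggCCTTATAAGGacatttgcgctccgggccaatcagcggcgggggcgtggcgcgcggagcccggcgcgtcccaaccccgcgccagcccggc
ACTA2, chr10:88952774-88952903, minus strand: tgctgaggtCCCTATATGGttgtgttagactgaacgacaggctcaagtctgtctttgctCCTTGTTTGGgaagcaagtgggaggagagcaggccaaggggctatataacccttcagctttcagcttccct

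The counts summed to between 29158502 and 78857900 reads in a sample. SMARCA4 was lower with shBRG1 in both lines, the log2 fold changes being -2.36 for 501Mel and -2.38 for Hermes 3A cells, and MITF was lower with shMITF, by -1.06 against shSCR2 in 501Mel and -0.85 in Hermes 3A cells. MITF in the 501Mel shMITF samples was at a counts-per-million (CPM) level of 496 and 547, next to 500 to 599 CPM in the shSCR1 samples and 1000 and 1200 CPM in the shSCR2 samples. With shBRG1 in 501Mel cells MITF was lower as well, by -1.55 against shSCR1, at 185 to 209 CPM. In Hermes 3A cells MITF was at 789 to 808 CPM with shBRG1 and at 1020 to 1130 CPM with shSCR. Replicates varied by a biological coefficient of variation of 4.52 to 5.86% in the shSCR1, both shBRG1 and the Hermes 3A shSCR groups, 16.2 and 16.8% in shSCR2 and 501Mel shMITF, and 28.1% in Hermes 3A shMITF. All 8 melanocyte markers exceeded 1 CPM in every group. The study's methods say that experiments were done at least in triplicate, and do not say whether the libraries of a group came from separate infections or cultures, so that p-values measure the spread between these samples, which may be technical.

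In control cells, the lines carried different sets of contractile genes. ACTA2 was at 0.359, 0.471 and 0.571 CPM in the 501Mel shSCR1 samples and at 31.2, 32.5 and 32.7 CPM in the Hermes 3A shSCR samples, a log2 difference of 6.09 ± 0.12 (SE, adjusted p = 1.8e-23 in edgeR's quasi-likelihood framework, as for all adjusted p-values given here). Every Hermes 3A sample was thus far above every 501Mel sample. MYL9 had 2 reads over the 3 shSCR1 samples and 1684 over the 3 Hermes 3A shSCR samples, a ratio of 965 with a 95% interval of 267 to 7974 that covers counting error only. CNN1 went the other way, with 46 reads over the shSCR1 samples and 1 read over the Hermes 3A shSCR samples, so that 501Mel was 40.1-fold higher (6.85 to 1620). Against the 12 reads of the shSCR2 samples the ratio was 13.9 (2.05 to 592).

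The abundant genes differed less. CNN2 was higher in Hermes 3A shSCR than in 501Mel shSCR1 cells by a log2 value of 1.17, CALD1 by 0.92, VCL by 0.70 and TPM1 by 0.60. TPM2 was lower by -1.17 and TAGLN by -0.95 against shSCR1, and both orders turn with the other 501Mel scramble group: TPM2 averaged 7.87 CPM in shSCR2, 51.9 CPM in shSCR1 and 23.7 CPM in Hermes 3A shSCR samples, and TAGLN 1.23, 6.30 and 3.38 CPM. Among the 9 genes tested, 6 were higher and 3 lower, counting MYL9 and CNN1, which passed the filter on low counts through the line where they were high and had to differ. Without them 5 of 7 were higher and 2 lower, and 40.2% of all genes tested were higher and 41.4% lower, so that most genes differed between the lines. Per kilobase of exon (RPKM, with exon lengths from GENCODE 29 on GRCh38), the order in 501Mel shSCR1 cells began with VCL at 17.4 ± 0.35 (SD, n = 3), CALD1 at 17.0 ± 0.47, TPM2 at 15.99 ± 1.8 and CNN2 at 13.9 ± 0.53, where VCL, CALD1 and TPM2 overlapped between samples and CNN2 lay below them. TPM1 followed at 2.31 ± 0.16 and TAGLN at 1.61 ± 0.18, and the other 4 genes were under 0.2. In Hermes 3A shSCR cells CALD1 at 33.0 ± 1.5 RPKM and CNN2 at 32.1 ± 1.6 lay within their spread, then VCL at 28.9 ± 0.52, ACTA2 at 10.8 ± 0.27, TPM2 at 7.29 ± 0.29, MYL9 at 4.96 ± 0.38, TPM1 at 3.58 ± 0.094 and TAGLN at 0.863 ± 0.055. ACTG2 and CNN1 had at most 5 reads in any Hermes 3A shSCR sample, which leaves their levels undetermined at this depth.

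**Figure D1:**
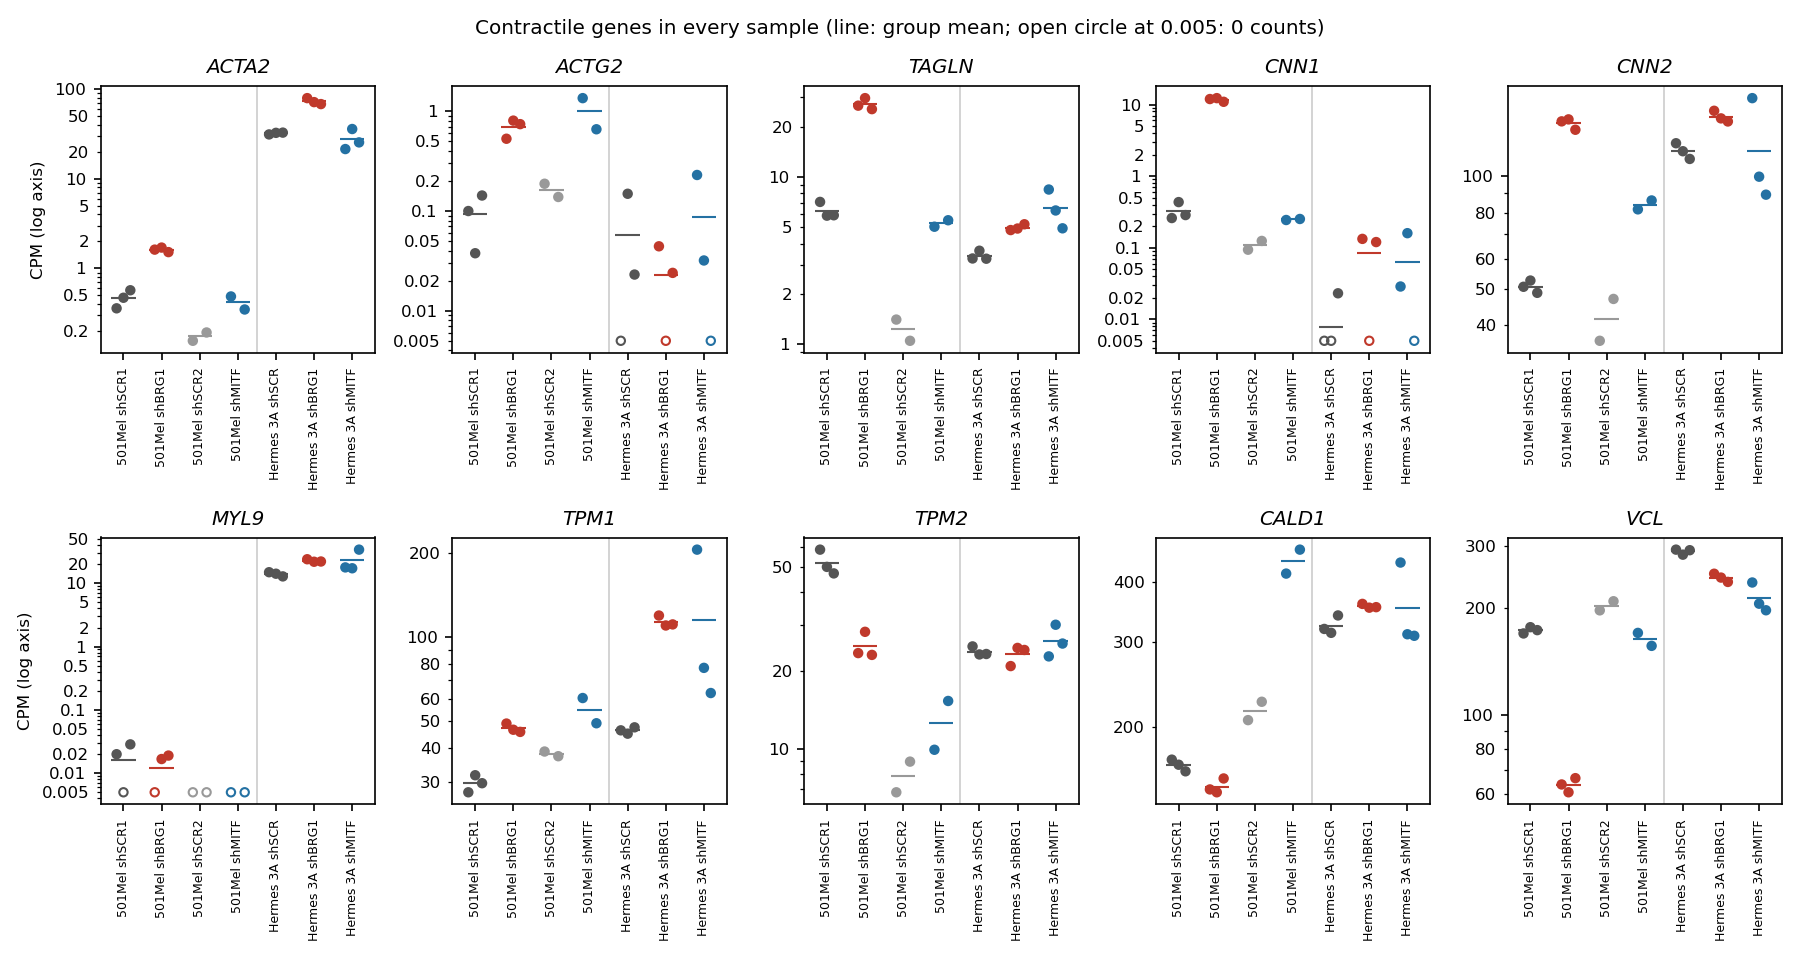
Level of each of the 10 genes in every sample, in CPM on a log axis, with 1 point per sample, the group mean as a line and samples with 0 counts as open circles at 0.005. MYL9 is seen at 12.8 CPM or more in every Hermes 3A sample and at 0 or 1 read in every 501Mel sample, and the TPM1 point at 206 CPM is replicate 1 of Hermes 3A shMITF.

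The reads of some of these genes may belong in part to a gene on the opposite strand, since the strand setting of the counting is not given in the sources used here. FAS, which encodes a death receptor, shares 380 exon bases with ACTA2, 12.8% of the ACTA2 exon bases, and was at 0.249 ± 0.12 CPM in 501Mel shSCR1 and 50.6 ± 5.6 CPM in Hermes 3A shSCR cells, a log2 difference of 7.55. In Hermes 3A cells FAS differed by 0.19 with shBRG1 and by -1.36 with shMITF, while ACTA2 differed by 1.17 and -0.20. The antisense transcript ACTA2-AS1 covers 17.3% of the ACTA2 exon bases and averaged at most 0.411 CPM in any group. TPM1-AS was at 0.125 ± 0.056 CPM with shSCR1 and 0.347 ± 0.015 CPM with shBRG1 in 501Mel cells, a log2 fold change of 1.35 (adjusted p = 0.0021), and differed by 0.61 (adjusted p = 0.203) with shBRG1 in Hermes 3A cells. PCSK7 shares 11.4% of the TAGLN exon bases, TPM1-AS 16.1% of those of TPM1 and AP3M1 11.1% of those of VCL. With shBRG1, PCSK7 differed on the log2 scale by 0.60 in 501Mel and 0.13 in Hermes 3A cells, and AP3M1 by 0.38 and 0.28. With shMITF, PCSK7 differed by 0.53 and -0.053, and AP3M1 by -0.17 and 0.16. The part of these genes in the values was not tested.

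With shBRG1 in 501Mel cells, the smooth muscle actins, transgelin and both calponins were up-regulated, and vinculin was down-regulated. CNN1 changed most, at 0.260, 0.434 and 0.286 CPM with shSCR1 and 11.9, 12.3 and 10.9 CPM with shBRG1. These values stood on 10 to 23 reads and on 575 to 734 reads per sample, a log2 fold change of 5.08 ± 0.15 (adjusted p = 2.1e-19). TAGLN was at 7.11, 5.88 and 5.91 CPM with shSCR1 and at 26.8, 29.7 and 25.5 CPM with shBRG1, a log2 fold change of 2.06 ± 0.081 (adjusted p = 7.9e-17). All 3 shBRG1 samples of both genes lay far above all shSCR1 samples.

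The smooth muscle actins rose from very low levels. ACTA2 reached 1.62, 1.71 and 1.52 CPM with shBRG1, a log2 fold change of 1.77 ± 0.20 (adjusted p = 3.4e-08), and even so stayed below the Hermes 3A control samples by over an order of magnitude. ACTG2 had 5, 2 and 5 reads with shSCR1 and 32, 48 and 39 reads with shBRG1, a ratio of 7.93 with a counting interval of 4.37 to 15.8 and a fitted log2 fold change of 2.90 ± 0.39 (adjusted p = 3.4e-07). This gene passed the filter on low counts only through its shBRG1 samples, and had to differ to be tested. CNN2, the calponin of non-muscle cells, rose from 50.5, 52.5 and 48.7 CPM to 141, 142 and 133 CPM, by 1.41 ± 0.048 on the log2 scale (adjusted p = 4.6e-18).

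VCL fell, and TPM2 fell against shSCR1 only. VCL was at 170, 177 and 173 CPM with shSCR1 and at 63.7, 60.5 and 66.4 CPM with shBRG1, a log2 fold change of -1.50 ± 0.049 (adjusted p = 2.0e-18). TPM2 was at 58.4, 50.1 and 47.3 CPM with shSCR1 and at 23.4, 28.2 and 23.0 CPM with shBRG1, a log2 fold change of -1.11 ± 0.081 (adjusted p = 5.0e-10). No shBRG1 sample of either gene reached a shSCR1 sample, but TPM2 with shBRG1 was higher than with shSCR2, by 1.59 (adjusted p = 2.6e-06). TPM1 was at 27.6, 31.8 and 29.8 CPM against 48.8, 46.4 and 45.6 CPM with shBRG1, a log2 fold change of 0.61 that passed the test (adjusted p = 6.3e-10) and not the fold threshold. CALD1 differed by -0.20 (adjusted p = 5.4e-04), a direction that turned to 0.15 when samples were scaled by library size in place of the trimmed mean of M-values (TMM).

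A gene is called here when its adjusted p is under 0.05 and its absolute log2 fold change is over 1. With shBRG1 in 501Mel cells 5 of the 9 genes tested were called higher and 2 lower, and 21.7% of all genes tested were called higher and 17.4% lower. Without ACTG2, which had to differ to be tested, 4 of 8 were called higher. MYL9 was not tested, with at most 1 read in any 501Mel sample. Scaling by library size moved the median of all genes up by 0.35, and the TPM2 value then was -0.77, short of the fold threshold. The summed level of 9 fibroblast markers was 7.14 to 9.70 CPM with shSCR1 and 17.96 to 21.2 CPM with shBRG1. Of the 7 tested 5 were called higher and 1 lower, and only 3 of the 9 exceeded 1 CPM in either group. Of 5 smooth muscle markers outside the list, 0 were called with shBRG1 by edgeR, among the 3 tested, and 2 of these passed an adjusted p of 0.05 in opposite directions. Their summed level was 55.4 to 65.1 CPM with shSCR1 and 45.1 to 52.9 CPM with shBRG1. The melanocyte markers summed to 28631 to 31299 CPM with shSCR1 and 3027 to 3333 CPM with shBRG1. The part of other cell states in the results was not tested.

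**Figure D2:**
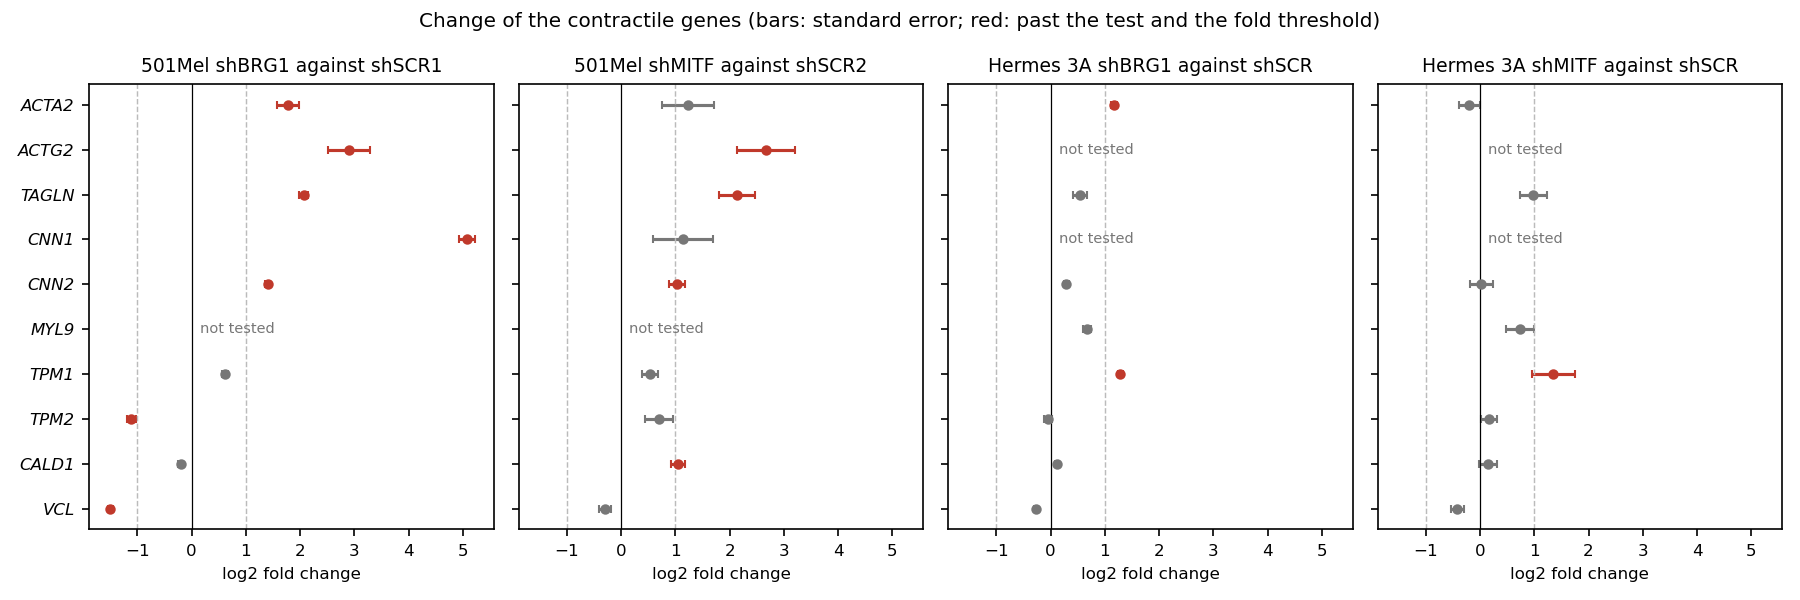
Log2 fold change of the 10 genes in each knockdown against its scramble control, with standard errors as bars, dashed lines at the fold threshold and red points for genes past the test and that threshold. CNN1 at 5.08 with shBRG1 in 501Mel cells stands farthest from 0, and VCL lies below 0 in all 4 panels, at -1.50, -0.30, -0.26 and -0.42, of which the shMITF values did not pass the test.

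With shMITF in 501Mel cells 4 of the 9 genes tested were called higher and 0 lower by edgeR, while 5.59% of all genes were called higher and 3.4% lower. ACTG2, ACTA2 and CNN1 passed the filter only through the shMITF samples, and without them 3 of 6 were called higher. At an unadjusted p under 0.05, VCL was lower, with 197 and 209 CPM for shSCR2 and 170 and 157 CPM for shMITF (-0.30 ± 0.11, adjusted p = 0.094). CALD1 rose from 207 and 226 CPM to 417 and 467 CPM, by 1.05 ± 0.13 on the log2 scale (adjusted p = 0.0011). CNN2 rose from 36.2 and 46.9 CPM to 81.6 and 86.2 CPM, by 1.03 ± 0.14 (adjusted p = 0.0018). Both genes had every shMITF sample above every shSCR2 sample.

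TAGLN was at 1.41 and 1.05 CPM with shSCR2 and at 5.05 and 5.52 CPM with shMITF, a log2 fold change of 2.13 ± 0.33 (adjusted p = 0.0031). ACTG2 had 6 and 10 reads with shSCR2 and 61 and 34 reads with shMITF, a fitted log2 fold change of 2.67 ± 0.53 (adjusted p = 0.0087). TPM1 differed by 0.53 ± 0.15 (adjusted p = 0.031), short of the fold threshold. ACTA2 at 1.23 ± 0.48 (adjusted p = 0.105), CNN1 at 1.14 ± 0.55 (adjusted p = 0.173) and TPM2 at 0.70 ± 0.26 (adjusted p = 0.093) did not pass the test. ACTA2 and CNN1 had between 3 and 22 reads in these samples. Of the fibroblast markers 2 of 6 tested were called higher and 0 lower, with summed levels of 10.9 to 11.6 CPM with shSCR2 and 11.4 to 19.7 CPM with shMITF. The smooth muscle markers summed to 24.2 to 29.5 CPM and 24.2 to 26.2 CPM, with 0 of 2 tested called. The melanocyte markers summed to 19862 to 23597 CPM and 11404 to 11871 CPM. Their part was not tested. Without replicate 2 of shMITF, 2 genes were called higher, since CNN2 at 0.95 and CALD1 at 0.92 then missed the fold threshold, and CNN2 missed it at 0.89 without replicate 1 of shSCR2.

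The scramble groups of 501Mel cells did not carry the same levels of these genes. TPM2 was at 58.4, 50.1 and 47.3 CPM in shSCR1 samples and at 6.81 and 8.93 CPM in shSCR2 samples, a log2 difference of -2.71 (adjusted p = 6.7e-07). TAGLN was lower in shSCR2 by -2.40 (adjusted p = 1.2e-05), CNN1 by -1.53 (adjusted p = 0.0145), ACTA2 by -1.35 (adjusted p = 0.0112) and CNN2 by -0.28 (adjusted p = 0.019). TPM1, CALD1 and VCL were higher in shSCR2, by 0.36, 0.38 and 0.24. In all, 3 of the 8 genes tested were higher and 5 lower, and 35.3% of all genes were higher and 34.5% lower. Without single replicates of these groups, CNN1 or CNN2 lost the test, at adjusted p-values of up to 0.067 and 0.129, and DESeq2 counted 3 genes lower. The sources do not say whether shSCR1 and shSCR2 are different vectors or different experiments.

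These differences bear on the knockdowns. Set against shSCR1, a comparison chosen after the data were seen, TAGLN in the shMITF samples differed by -0.27 (adjusted p = 0.153) where it differed by 2.13 against shSCR2. ACTA2 then was at -0.16 and CNN1 at -0.42, neither past the test, while ACTG2 at 3.45 (adjusted p = 3.7e-04) and CALD1 at 1.396 (adjusted p = 1.5e-06) were called higher. CNN2, called against shSCR2, was not called against shSCR1, averaging 83.9 CPM with shMITF and 50.6 CPM with shSCR1. TPM2 turned from 0.70 to -2.05 (adjusted p = 7.0e-05). For shBRG1, the change of TPM2 turned from -1.11 against shSCR1 to 1.59 against shSCR2 (adjusted p = 2.6e-06), since its level with shBRG1 lay between the scramble groups. CNN1, TAGLN, ACTA2, ACTG2 and CNN2 were called higher with shBRG1 against either scramble group. Their log2 values against shSCR2 were 6.603, 4.48, 3.10, 2.10 and 1.68. VCL was called lower against either group, at -1.74 against shSCR2. CNN1, ACTA2 and ACTG2 had 0 shSCR2 samples over the cutoff of the filter on low counts. ACTG2 had 0 shSCR1 samples over it as well. Against such a group these genes passed only through the knockdown samples, and had to differ to be tested. This holds for ACTG2 at 3.45 with shMITF too.

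**Figure D3:**
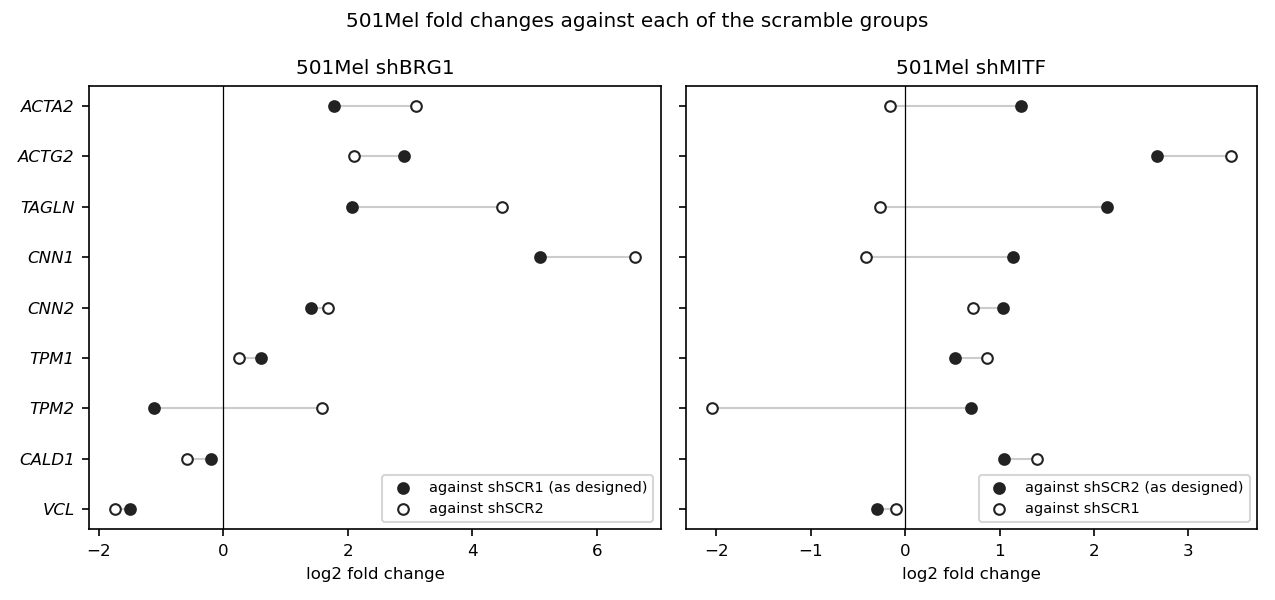
Log2 fold change of the 9 genes measured in 501Mel cells against the scramble group of the design (filled) and against the other scramble group (open), for shBRG1 on the left and shMITF on the right. TPM2 moves across 0 in both panels, from -1.11 to 1.59 and from 0.70 to -2.05, and TAGLN moves across 0 with shMITF, from 2.13 to -0.27.

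The shBRG1 and shMITF changes in 501Mel cells, each against its own scramble group, were compared in a single fit of the 4 groups. The change of CNN1 was larger with shBRG1 by 3.98 on the log2 scale (adjusted p = 1.5e-05), and that of CNN2 by 0.40 (adjusted p = 0.0099). The changes of TPM2 (-1.78, adjusted p = 1.2e-04), CALD1 (-1.22, adjusted p = 2.2e-07) and VCL (-1.17, adjusted p = 1.2e-07) were lower with shBRG1. Here 2 of 9 genes were higher and 3 lower, while 21.2% of all genes were higher and 26.8% lower. For TAGLN, TPM1, ACTA2 and ACTG2 the differences were -0.086 ± 0.22, 0.099 ± 0.13, 0.57 ± 0.46 and 0.23 ± 0.69, which did not pass the test and leave room for differences of that size. These changes are each relative to a scramble group, and the scramble groups differed. MITF itself was at 185 to 209 CPM in the shBRG1 samples and at 496 and 547 CPM in the shMITF samples. The part of MITF loss in these differences was not tested. Without replicate 2 of shSCR2 the CNN2 difference was 0.24 (adjusted p = 0.095), no longer past the test.

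In Hermes 3A cells with shBRG1, ACTA2 and TPM1 were up-regulated past the fold threshold. ACTA2 was at 31.2, 32.5 and 32.7 CPM with shSCR and at 79.1, 71.4 and 67.9 CPM with shBRG1, a log2 fold change of 1.17 ± 0.058 (adjusted p = 3.2e-16). TPM1 was at 46.2, 44.9 and 47.3 CPM with shSCR and at 119, 110 and 111 CPM with shBRG1, a log2 fold change of 1.28 ± 0.046 (adjusted p = 3.1e-19). Both had every shBRG1 sample above every shSCR sample.

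Smaller changes passed the test and not the fold threshold. MYL9 was at 14.9, 14.2 and 12.8 CPM with shSCR and at 24.0, 21.9 and 22.1 CPM with shBRG1 (0.68 ± 0.074, adjusted p = 6.7e-09). TAGLN was at 3.26, 3.63 and 3.25 CPM with shSCR and at 4.82, 4.92 and 5.22 CPM with shBRG1 (0.55 ± 0.13, adjusted p = 5.0e-04). For both light chain and transgelin the samples of the groups did not overlap. CNN2 differed by 0.29 (adjusted p = 1.6e-06), CALD1 by 0.12 (adjusted p = 0.0128) and VCL by -0.26 (adjusted p = 1.0e-06). TPM2 was at 24.8, 23.1 and 23.2 CPM with shSCR and 20.8, 24.4 and 24.0 CPM with shBRG1, and did not pass the test (-0.051, adjusted p = 0.560). Of the 8 genes tested 2 were called higher and 0 lower by edgeR, where 5.78% of all genes were called higher and 3.47% lower. With no fold threshold, 6 were higher and 1, VCL, was lower. The shares of all genes above include the fold threshold, and no share without it is given here to set beside that count. The median of the 8 genes was 0.42, and that of all genes 0.0093. The fibroblast markers summed to 392.1 to 419 CPM with shSCR and 433 to 436 CPM with shBRG1. Of these 3 of 7 were called higher and 0 lower, though 2 passed an adjusted p of 0.05 as lower. The smooth muscle markers summed to 57.0 to 64.4 CPM and 61.2 to 71.9 CPM, with 0 of 3 tested called higher and 1 lower. The melanocyte markers summed to 63788 to 65231 CPM and 31366 to 32602 CPM. Their part was not tested. CNN1 had 1 read over the shSCR samples and 11 over the shBRG1 samples, a ratio of 9.28 with a counting interval of 1.35 to 399, and ACTG2 had 6 and 3 reads.

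In Hermes 3A cells with shMITF the replicates disagreed. TPM1 was at 206, 77.4 and 62.9 CPM, against 46.2, 44.9 and 47.3 CPM with shSCR, a log2 fold change of 1.35 ± 0.39 (adjusted p = 0.0485). Replicate 1 stood apart, and without it the log2 fold change was 0.62 (adjusted p = 0.0099), under the fold threshold. TAGLN was at 8.43, 6.32 and 4.94 CPM, all above the shSCR samples, a log2 fold change of 0.98 ± 0.25 (adjusted p = 0.030). MYL9 was at 17.8, 17.3 and 34.0 CPM, where replicate 3 stood apart (0.74 ± 0.26, adjusted p = 0.084).

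The other genes did not pass the test with shMITF in Hermes 3A cells. ACTA2 was at 21.4, 35.8 and 25.4 CPM, on both sides of the shSCR samples (-0.20 ± 0.19, adjusted p = 0.530). VCL was at 236, 206 and 197 CPM with shMITF and at 293, 283 and 291 CPM with shSCR, so that the groups did not overlap (-0.42 ± 0.13, adjusted p = 0.0549). CNN2, TPM2 and CALD1 differed by 0.025, 0.16 and 0.14. Of the 8 genes tested 1 was called higher and 0 lower by edgeR, where 3.35% of all genes were called higher and 4.04% lower, with VCL the only gene lower at an unadjusted p under 0.05. The median of the 8 genes was 0.15, against 0.045 for all genes. The count of 1 rests on TPM1 and became 0 without replicate 1 of shMITF, or without any single shSCR replicate, and with the replicate number as a block (TPM1 adjusted p = 0.072). It became 2, with TAGLN, without replicate 2 or 3 of shMITF. The summed fibroblast markers were at 401 to 626 CPM with shMITF, with 3 of 7 called higher and 0 lower. The smooth muscle markers were at 25.9 to 37.1 CPM, against 57.0 to 64.4 CPM with shSCR, with 0 of 3 tested called. The melanocyte markers were at 26497 to 34315 CPM. Their part was not tested.

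The change with shBRG1 differed between the lines for most of these genes. The differences, 501Mel minus Hermes 3A on the log2 scale, were 1.48 for TAGLN (adjusted p = 1.0e-11), 1.09 for CNN2 (adjusted p = 2.3e-17) and 0.58 for ACTA2 (adjusted p = 0.0102), all higher in 501Mel cells, though without replicate 1 of shSCR1 the ACTA2 value was 0.41 (adjusted p = 0.108). They were -1.27 for VCL (adjusted p = 5.2e-20), -1.09 for TPM2 (adjusted p = 2.4e-10), -0.70 for TPM1 (adjusted p = 9.0e-11) and -0.35 for CALD1 (adjusted p = 1.2e-05), which was -0.071 (adjusted p = 0.328) with library sizes. The 501Mel change of TPM2 was -1.11 against shSCR1, used here, and 1.59 against shSCR2, while its Hermes 3A change did not pass the test. The sign of the TPM2 difference thus depends on the scramble group. The difference for ACTG2 was 4.04 ± 1.3 (adjusted p = 0.0071), and rested on 6 and 3 reads in the Hermes 3A groups, and it was 2.12 (adjusted p = 0.452) without replicate 2 of Hermes 3A shSCR. ACTG2 passed the filter on low counts only through the 501Mel shBRG1 samples, and had to differ to be tested. With ACTG2, 4 genes were past the test as higher and 4 as lower, while 24.8% of all genes were higher and 33.1% lower. Without it, the genes past the test as higher were TAGLN, CNN2 and ACTA2. The differences for CNN1 and MYL9 rested on a group near 0 reads and gave no usable value. For shMITF 0 genes were past edgeR's test as higher, against 2.16% of all genes, and 0 as lower, against 0.83%. The nearest were CALD1 at 0.89 (adjusted p = 0.065), CNN2 at 1.00 (adjusted p = 0.106) and ACTA2 at 1.403 (adjusted p = 0.115), and before adjustment 4 genes, TAGLN among them, had a p under 0.05, all higher. DESeq2 counted 2 genes higher, and edgeR without replicate 1 of Hermes 3A shMITF counted 3.

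The Hermes 3A knockdowns share their control and were compared with each other directly. ACTA2 was higher with shBRG1 than with shMITF by 1.36 ± 0.20 (adjusted p = 0.0060), the only one of the 8 genes past the test, while 7.36% of all genes were higher and 6.9% lower. Without replicate 1 of shMITF 3 genes were higher, among them TPM1, at 0.66 (adjusted p = 0.012).

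SRF itself was called higher only with shBRG1 in 501Mel cells, against shSCR1. Its level was 46.1, 53.0 and 50.2 CPM with shSCR1 and 127, 122 and 115 CPM with shBRG1, a log2 fold change of 1.24 ± 0.053 (adjusted p = 3.6e-16). The change was larger than that with shMITF in the same line by 1.19 (adjusted p = 1.4e-06) and than that with shBRG1 in Hermes 3A cells by 0.92 (adjusted p = 1.4e-13). With shMITF in 501Mel cells SRF was at 69.5 and 66.6 CPM, within the shSCR2 values of 56.4 and 74.4 CPM (0.075, adjusted p = 0.746). SRF was higher in shSCR2 than in shSCR1 by 0.40 (adjusted p = 0.0047), so that the shBRG1 samples lay above both scramble groups and nearer to shSCR2. In Hermes 3A cells it differed by 0.29 with shBRG1 and by 0.16 with shMITF. The SRF cofactors moved in opposite directions in 501Mel cells. MRTFA was higher with shBRG1 by 0.66 and with shMITF by 0.61, and MRTFB was lower by -0.49 and -0.86, all past the test. MYOCD had at most 4 reads in any 501Mel sample and 0 in the Hermes 3A shSCR and shBRG1 samples. Of 8 regulators, 7 were tested with shBRG1 in 501Mel cells, and 1 was called higher and 1 lower, where 21.7 and 17.4% of all genes were. In the other 3 comparisons 0 were called by edgeR, though between 1 and 5 passed an adjusted p of 0.05, for which no share of all genes is given here. With the fold threshold, 3.35 to 5.78% of all genes were called higher in these comparisons and 3.4 to 4.04% lower.

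**Figure D4:**
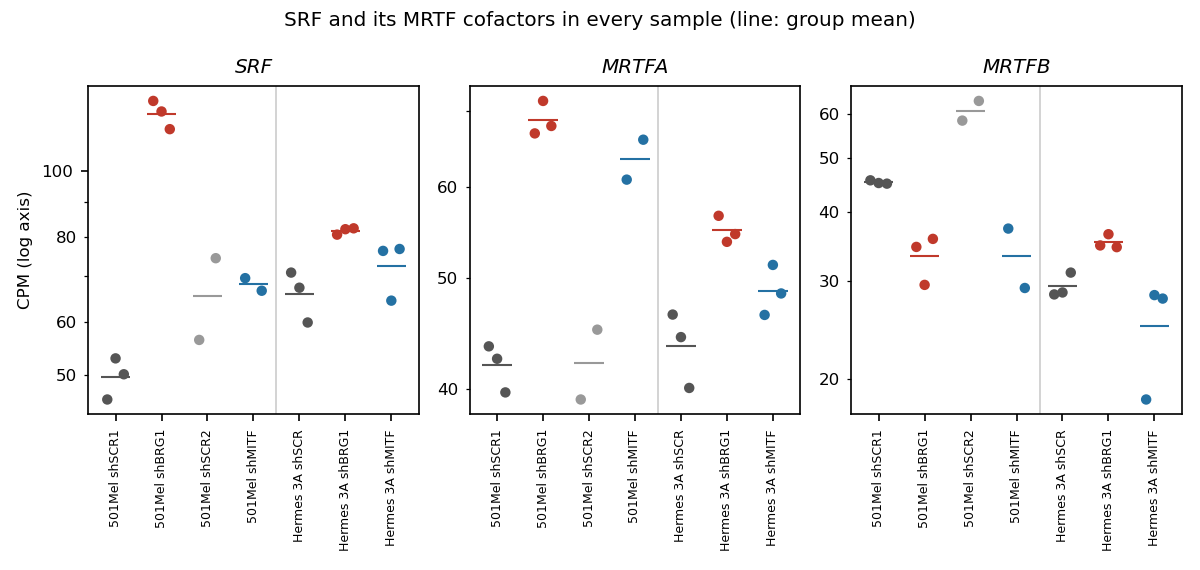
Levels of SRF, MRTFA and MRTFB in every sample, in CPM on a log axis, with 1 point per sample and the group mean as a line. SRF is highest in the 501Mel shBRG1 samples, at 115 to 127 CPM, and MRTFB is lower with either knockdown in 501Mel cells.

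Another list held 34 further actin and SRF target genes. With shBRG1 in 501Mel cells 5 of its 32 tested genes were called higher and 1 lower, with a median of 0.18, both counts being below the shares of all genes (21.7 and 17.4%). ZYX, which encodes the stress fibre protein zyxin, rose from 13.6 ± 1.4 to 166 ± 15 CPM (SD, n = 3), by 3.55 ± 0.074 on the log2 scale. ACTC1, the cardiac α-actin, had 1 to 3 reads per shSCR1 sample and 15 to 27 per shBRG1 sample. It passed the filter on low counts only through the shBRG1 samples, and had to differ to be tested. MYH10, a heavy chain of non-muscle myosin, fell from 708 ± 39 to 195 ± 9.5 CPM, a log2 fold change of -1.91. With shMITF in 501Mel cells 5 of 28 were called higher and 3 lower, with a median of 0.19 (all genes 5.59 and 3.4%), among them SYNPO2, an actin-binding protein, at 1.63 and the SRF target EGR1 at -1.93. SYNPO2 was lower in shSCR2 than in shSCR1 by -0.97, so that the size of its change depends on the scramble group, and its call may as well. EGR1 differed between these groups by -0.76, which did not pass the test.

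In the melanocyte line 2 of 31 were called higher and 3 lower with each knockdown, with medians of 0.13 for shBRG1 (all genes 5.78 and 3.47%) and 0.093 for shMITF (all genes 3.35 and 4.04%). CSRP2, a LIM protein of actin bundles, was higher by 1.43 with shBRG1 and by 2.88 with shMITF, and ZYX by 1.29 and 1.34. MYH10 was lower by -2.02 with shMITF, and SYNPO2 by -1.20. LMOD1, an actin filament nucleator of smooth muscle, was lower by -1.25 with shBRG1. ZYX was called higher in each of the 4 comparisons, with 1.16 for shMITF in 501Mel cells, where shSCR2 was above shSCR1 by 1.34.

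Of 14 focal adhesion genes, 1 was called higher and 3 lower with shBRG1 in 501Mel cells, where 21.7 and 17.4% of all genes were. The counts were 1 and 1 of 13 with shMITF (all genes 5.59 and 3.4%). In Hermes 3A cells they were 0 and 1 with shBRG1 (all genes 5.78 and 3.47%), and 1 and 1 with shMITF (all genes 3.35 and 4.04%). TNS1, the adhesion adaptor tensin 1, fell by 4.83 on the log2 scale with shBRG1 and by 3.38 with shMITF in 501Mel cells, and by 1.52 with shBRG1 in Hermes 3A cells. ITGB5, an integrin chain, rose by 1.46 with shMITF in 501Mel cells, and ITGB3 fell by 1.35 with shMITF in Hermes 3A cells. ITGB5 was lower in shSCR2 than in shSCR1 by -0.89, so that the size of its change depends on the scramble group, and its call may as well. TNS1 differed between these groups by 0.38, which did not pass the test.

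TGF-beta is a secreted inducer of smooth muscle genes. Of 11 genes of its signalling, 1 was called higher and 4 lower with shBRG1 in 501Mel cells, with a median of -0.80, where 21.7 and 17.4% of all genes were called. TGFBR3, a co-receptor, was at -1.99. With shMITF in 501Mel cells 1 was called higher, the signal transducer SMAD3 at 1.97, and 1 lower, the ligand TGFB2 at -4.87. Of all genes 5.59% were called higher there and 3.4% lower. SMAD3 was lower in shSCR2 than in shSCR1 by -1.43 and TGFB2 by -0.84, so that the size of both changes depends on the scramble group. The call of SMAD3 may depend on it as well. In Hermes 3A cells TGFBR2, the type II receptor, was lower by -1.21 with shBRG1 as the only called gene, and SMAD7, an inhibitor, was higher by 1.44 with shMITF, where 1 was called higher and 1 lower. The shares of all genes called higher and lower in this line were 5.78 and 3.47% with shBRG1, and 3.35 and 4.04% with shMITF.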

How the data were processed

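Ribosomal RNA was removed from total RNA, and a duplex-specific nuclease step was used that lowers the most abundant cDNAs and can compress their levels. The authors deposited raw counts of reads per Ensembl gene and sample. The submitters' processing notes name CASAVA 1.8, TopHat 1.4.1, Bowtie 0.12.7 and hg19. The counting program, annotation, strand setting and treatment of reads with several hits are not given in the sources used here. Totals were 29158502 to 78857900 counts per sample, which sets the precision of low genes: 3 counts were 0.0414 to 0.112 CPM.

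Groups and replicate numbers came from the labels. Each comparison used its own groups and the genes listed for all of them, with edgeR 4.0.16 on R 4.3.3 (TMM, filterByExpr, robust glmQLFit, glmQLFTest) and Benjamini-Hochberg adjustment over all genes tested. Differences between changes were contrasts in one fit. The standard error is the absolute log2 fold change over the square root of F. CPM and RPKM used one TMM scale over 19 samples, so that ratios of printed CPM differ slightly from fitted fold changes. Gene names, exon lengths and overlaps came from GENCODE 29 on GRCh38, not the build of the counts, with 40913 of 44717 identifiers matched to a symbol. The code was tested on simulated data. Figures were drawn with Python and matplotlib.

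The members and lists were chosen with earlier results of these data known. The result of 1 further gene list is not reported here. Named besides the 10 genes were the targeted genes, SRF, its cofactors and, per comparison, up to 3 genes called higher and 3 lower with the largest change among list genes whose groups did not overlap. FAS, its neighbours in other overlaps and genes named for a second comparison were added after seeing values. Alternatives were DESeq2 1.42.0, library sizes, no filter, at least 10 counts in every sample, a replicate block, glmTreat, no fold threshold, pooled or exchanged scramble groups and leaving out each replicate.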

Additional observations from a re-analysis of the deposited data

Results flagged for a closer look

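Of the 10 contractile genes, 8 were singled out because the change with shBRG1 differed between 501Mel and Hermes 3A cells by the contrast of the changes. The difference, 501Mel minus Hermes 3A on the log2 scale, was 0.58 for ACTA2, 4.04 for ACTG2, 1.48 for TAGLN and 1.09 for CNN2, and it was -0.70 for TPM1, -1.09 for TPM2, -0.35 for CALD1 and -1.27 for VCL. Leaving out single replicates gave 0.41 to 0.69 for ACTA2 and 2.12 to 4.90 for ACTG2, and each missed the test in 1 of these fits, ACTA2 without replicate 1 of shSCR1 (adjusted p = 0.108) and ACTG2 without replicate 2 of Hermes 3A shSCR (adjusted p = 0.452). ACTG2 passed the filter on low counts only through the 501Mel shBRG1 samples, and had to differ to be tested. With library sizes in place of TMM, CALD1 was at -0.071 (adjusted p = 0.328). The TPM2 difference uses shSCR1, and TPM2 was lower in shSCR2 than in shSCR1 by a log2 value of -2.71. The 501Mel change of TPM2 was 1.59 against shSCR2, so that the sign of this difference depends on the scramble group. Groups of 3 or fewer samples were not searched for outlying samples.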

How the results depend on the processing

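Over the 10 genes and 10 comparisons, 1084 of 1161 values under an alternative kept their direction and their side of the threshold, 33 lost the call, 16 gained it and 28 changed direction. All 97 values of Hermes 3A shSCR against 501Mel shSCR1 kept theirs. Low depth limits ACTG2, CNN1 and MYL9, and the causes of the changes below were not tested unless the alternative itself shows them.

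With shBRG1 in 501Mel cells, 1 gene and not 2 was called lower with library sizes, with a minimum of 10 counts per sample, with glmTreat (a test against the fold threshold), and with the other or the pooled scramble groups. TPM2 was at 1.59 against the other scramble group, and CALD1 at 0.15 with library sizes. For shMITF in 501Mel cells, 0 genes were called higher with glmTreat, 2 with the other or pooled scramble groups, and 2 to 4 when a replicate was left out. Against the other scramble group 1 was called lower, TPM2 was at -2.05, ACTA2 at -0.16, TAGLN at -0.27 and CNN1 at -0.42, and TPM2 was at -1.44 against the pooled groups.

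With shBRG1 in Hermes 3A cells, 6 genes were higher and 1 lower with no fold threshold, and TPM2 was at 0.053 with library sizes and at -0.10 to 0.0086 without a replicate. For shMITF in Hermes 3A cells, 2 genes were higher with library sizes or no fold threshold, 0 with no filter, the replicate block or glmTreat, and 0 to 2 without a replicate. No share of all genes is given here for the counts with no fold threshold. CNN2 was at -0.026 with the block and at -0.29 to 0.19 without a replicate, and CALD1 at -0.052 to 0.24.

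For the shMITF change in 501Mel minus that in Hermes 3A cells, 2 genes were higher with DESeq2 or no filter, 1 with library sizes, at least 10 counts or the block, and 0 to 3 without a replicate, where ACTG2 was at -0.12 to 4.05 and CNN1 at -1.96 to 0.35. For shBRG1 minus shMITF in 501Mel cells, 1 gene was higher with at least 10 counts and 1 to 2 without a replicate. TAGLN there was at 0.13 with library sizes, 0.041 with at least 10 counts and -0.31 to 0.20 without a replicate, and ACTG2 at -0.19 to 0.79. For Hermes 3A shBRG1 against shMITF, 1 to 3 genes were higher without a replicate, MYL9 was at 0.013 and TPM1 at 0.15 with the block, and without a replicate MYL9 was at -0.21 to 0.32, TPM1 at -0.37 to 0.66 and CALD1 at -0.12 to 0.16. For shSCR2 against shSCR1, 3 genes were lower with DESeq2 or at least 10 counts.

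Same-numbered samples did not deviate together in every pair, with correlations of -0.081 to 0.112 over the 4 knockdown comparisons, so that the numbers were not taken as a pairing, and the block moved the counts named above and no other by over 1.5 times.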
